A study of Mus musculus with 6 samples.

Results

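A set of 40 marker genes of macrophages, osteoclasts and other white blood cells was followed through RNA sequencing of primary chondrocytes, the cells of cartilage. They were taken by symbol from a table of 47480 genes, in which all 40 were found: 24 of macrophages and leukocytes in general, 5 Fc receptor genes and adaptors, 3 subunits of complement C1q, 4 genes of MHC class II and 4 of osteoclasts. The cells came from neonatal mice of a C57BL/6 background that were wild type (WT) or carried a global knockout of Adora2a, the gene of an adenosine receptor (A2ARKO). Each of the 3 libraries per genotype holds RNA of trypsinized chondrocytes pooled over a whole litter, so that the spread between libraries is that between litters. No source used here gives the sex of the pups, the time in culture or the deleted part of the gene. The study compared the genotypes to characterize drivers of osteoarthritis, in which cartilage is lost.

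Macrophages and osteoclasts arise from a shared myeloid precursor and both depend on the receptor encoded by Csf1r, whose ligand colony-stimulating factor 1 is made by mesenchymal cells. Macrophages carry the pan-leukocyte phosphatase CD45 (Ptprc), lysozyme, Fc receptors that bind antibody, and often C1q, the recognition molecule of the classical complement pathway. Osteoclasts, formed by fusion of such precursors under RANK ligand, resorb bone and mineralized cartilage. Cartilage itself has no blood vessels, whereas the marrow, synovium and muscle around it hold macrophages, and a few of the genes, such as Gpnmb and Acp5, are also made by mesenchymal cells. In bulk RNA, fewer cells of a type and less RNA per cell cannot be told apart.

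Values are FPKM, fragments scaled to gene length and library depth, so levels can be set side by side between genes. Low values rose in steps that correspond to 41.6 to 58.15 M reads per library. Adora2a read 9.36, 7.31 and 3.46 FPKM in WT against 0.41, 0.54 and 0.66 in A2ARKO (limma adjusted p = 0.0203). That call was lost without WT replicate 2 (0.0582), without any 1 of the A2ARKO libraries (0.0824 to 0.0955) and with no filter (0.0533), while the groups did not overlap. Chondrocyte markers were present in every library, but their summed level ranged from 403 FPKM in WT replicate 3 and 1226 in WT replicate 2 to 24698 in WT replicate 1, with 2207 to 6155 in A2ARKO. In this sum the WT libraries differed from each other by more than the A2ARKO libraries did. WT replicate 2 also stood apart by skeletal muscle genes such as Actc1, an actin of muscle, at 317.7 FPKM against 0.56 to 2.36 in the other 5 libraries. Results that rest on WT replicate 2 are given with and without it.

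Most members were highest in WT replicate 2 and lowest in A2ARKO. Summed over all 40 they came to 282, 2292 and 182 FPKM in WT replicates 1, 2 and 3, and to 109, 82.2 and 79.2 FPKM in A2ARKO replicates 1, 2 and 3. As a share of all FPKM of a library this was 0.0964%, 0.905% and 0.0788% in WT and 0.0406%, 0.0302% and 0.0263% in A2ARKO. Lyz2 was the largest single contributor in every WT library and Gpnmb in every A2ARKO library. WT replicate 2 was the highest of the 6 libraries for 36 of 40 members, and for 20 of the 21 that could be tested (18.4% of all tested genes). It was at least 4 times the next library for 32 members, 18 of them tested (0.604%). Among all 26442 genes above 0 in some library, WT replicate 2 was the highest for 20.9% and reached 4 times the next for 2.6%. Cd163, Itgax, H2-Ab1 and Calcr were the 4 members highest elsewhere. A level of 1 FPKM or more was reached by 24, 35 and 20 members in WT replicates 1, 2 and 3 and by 13, 8 and 7 in A2ARKO replicates 1, 2 and 3.

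**Figure D1:**
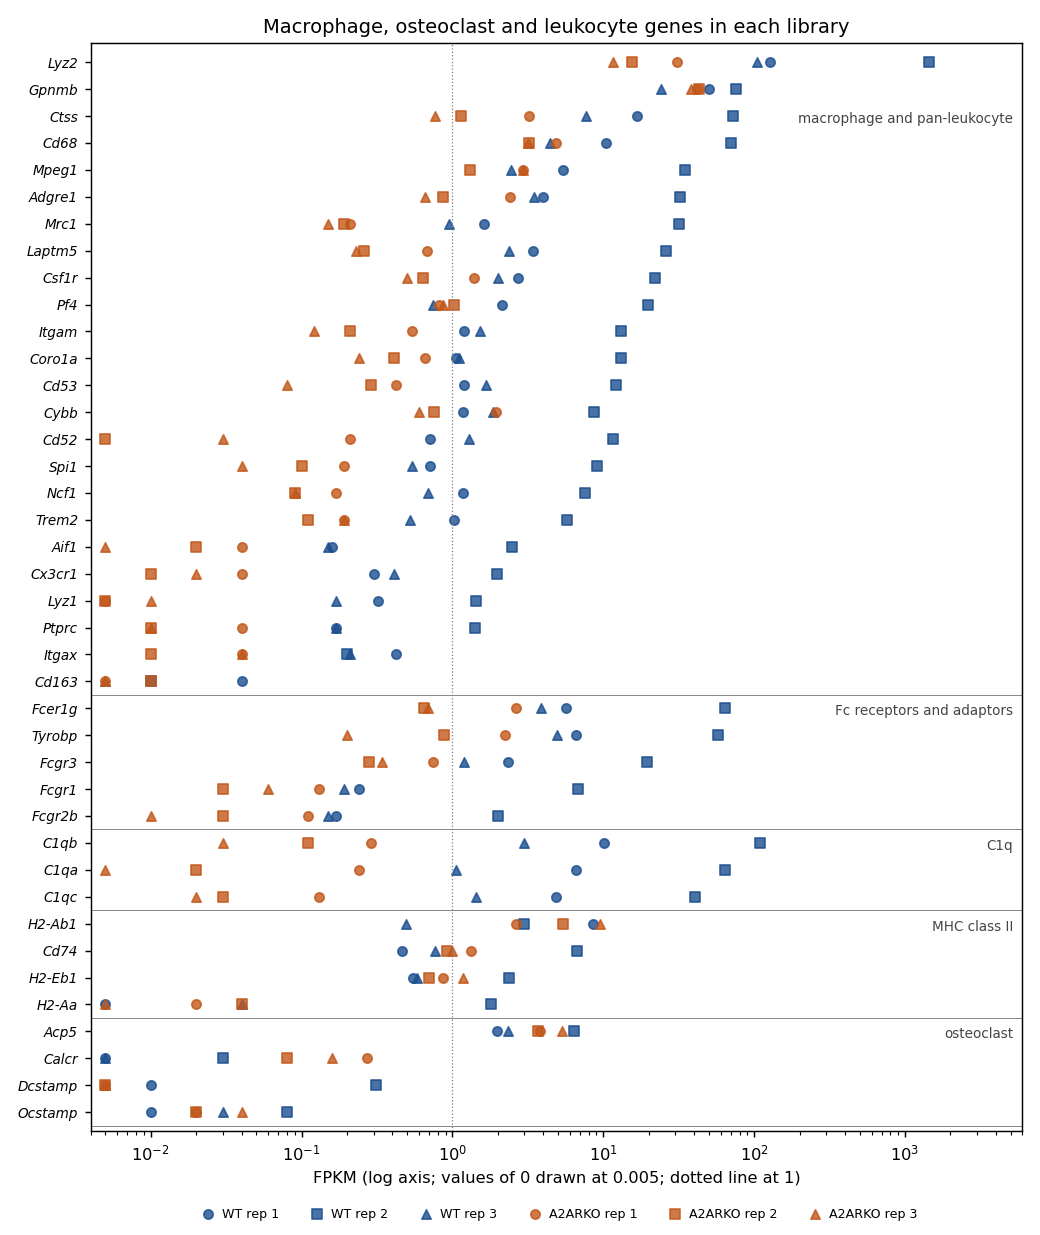
FPKM of each of the 40 members (rows, grouped by role) in the 3 WT libraries (blue) and 3 A2ARKO libraries (orange) on a log axis, with values of 0 drawn at 0.005. WT replicate 2 (blue squares) lies to the right of the other libraries for 36 of the 40 genes, and for 26 genes every WT library lies above every A2ARKO library.

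In 26 of 40 members every WT library lay above every A2ARKO library, and in 1 member, Calcr, every A2ARKO library lay above every WT library. Over the 26442 genes above 0 in some library, 10.2% were ordered with WT above and 10.9% with A2ARKO above. Leaving out WT replicate 2 cannot undo such an order, and the size of the difference then shrank: the ratio of the WT mean to the A2ARKO mean for Lyz2, for example, went from 28.7 to 5.98. Differences were tested with limma on log2(FPKM + 1) over the 11595 genes that reached 1 FPKM in 3 or more libraries. This held for 21 of the 40 members. Of these 21, 8 had no A2ARKO library at 1 FPKM and so passed through WT alone. These 8 were C1qa, C1qb, C1qc, Cd53, Coro1a, Fcgr3, Itgam and Laptm5. The other 19 members were untested, 5 of them below 1 FPKM everywhere. Among the 21, WT lay wholly above A2ARKO in 14 (14.9% of all tested genes) and wholly below it in 0 (18%). For the 8 members that passed through WT alone the filter itself fixed that order, and among the other 13 it was found in 6. Only 83 of all 11595 tested genes had passed in that way.

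None of the 21 tested members was called at a limma adjusted p below 0.05, where 5.08% of all tested genes were called, 1.77% lower and 3.31% higher in A2ARKO. At an unadjusted limma p below 0.05, 11 of the 21 members were lower in A2ARKO (10.4% of all tested genes). Of these 11, 6 had passed the filter through WT alone, so the filter had chosen them for being high there, and 5 were among the other 13 members: Adgre1, Ctss, Fcer1g, Lyz2 and Tyrobp. Neither the count nor the median that follows is support for a difference. The median log2 fold change, A2ARKO minus WT, was -1.82 over the 21 members and 0.0020 over all tested genes, and 19 of the 21 lay below 0. Without WT replicate 2 the median was -0.91, and 14 members had an unadjusted p below 0.05 and were lower (9.9% of all tested genes). In that fit 1 member was called, Laptm5, which had passed the filter through WT alone (0.845% were called lower). Without WT replicate 3 these counts were 17 (11.5%) and 1, Ctss (limma adjusted p = 0.047, 2.45%). Without A2ARKO replicate 1, 2 or 3 in turn, 5, 3 and 3 members had an unadjusted limma p below 0.05 and were lower, against 7.61%, 5.96% and 6.32% of all tested genes, and 0 were called, against 0.31%, 0.0949% and 0.181% called lower. When each library was weighted by its agreement with the fit, 11 members were called lower, against 4.71% of all tested genes, and 18 had an unadjusted p below 0.05 (13.7%). These weights ran from 0.282 for WT replicate 1 to 10.3 for A2ARKO replicate 2, and their estimation stopped short of convergence. With no filter, all 40 members were fitted, 0 were called (0.265% of genes lower) and 9 had an unadjusted p below 0.05 (6.54%). With 1 FPKM in any library, 35 were fitted, 0 called (1.24%) and 11 below 0.05 (9.99%). Without WT replicate 2, a filter on the other 5 libraries left 12 members with 0 called (0.71%) and 6 below 0.05 (9.49%). With 1 FPKM in any of those 5, 27 members were left with 1 called, again Laptm5 (0.746%), and 18 below 0.05 (9.9%).

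**Figure D2:**
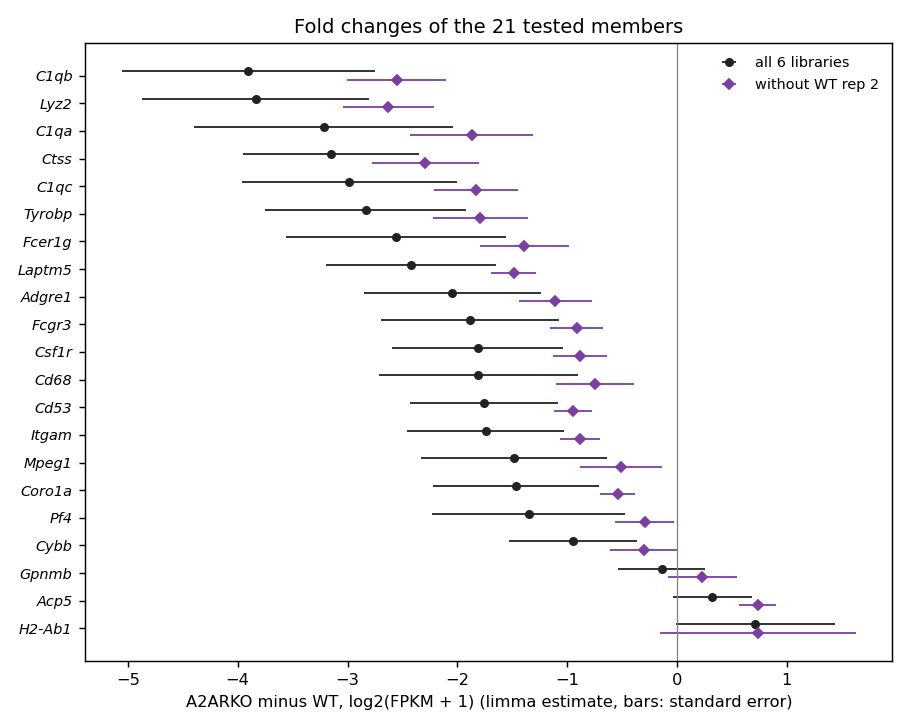
Limma log2 fold change (A2ARKO minus WT, log2(FPKM + 1) scale) with its standard error for the 21 tested members, from all 6 libraries (circles) and without WT replicate 2 (diamonds). Without that library the estimates move towards 0 for all but Acp5, H2-Ab1 and Gpnmb, and the standard errors shrink for all but H2-Ab1.

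Promoters of 5 members from role groups with like and unlike levels over the libraries are shown, so that their short motifs can be compared. They are the 250 bases before the start of transcription in RefSeq on GRCm38.p6, the assembly of mm10, written 5′ to 3′ on the strand of the gene. Capitals mark GAGGAA, the core recognized by the myeloid transcription factor PU.1 (encoded by Spi1), or its complement TTCCTC, and GATTGG or CCAATC, the CCAAT element that is part of the conserved promoter module of MHC class II genes. The integrin gene Itgam and the mannose receptor gene Mrc1 stand for macrophages, C1qb for C1q, and H2-Aa and H2-Eb1 for MHC class II.
Itgam (chr7:128062390-128062639, plus strand): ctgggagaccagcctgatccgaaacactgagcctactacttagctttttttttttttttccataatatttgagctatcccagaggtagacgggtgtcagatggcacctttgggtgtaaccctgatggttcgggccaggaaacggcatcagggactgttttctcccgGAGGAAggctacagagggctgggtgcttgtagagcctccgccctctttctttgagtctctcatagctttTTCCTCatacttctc
Mrc1 (chr2:14229164-14229413, plus strand): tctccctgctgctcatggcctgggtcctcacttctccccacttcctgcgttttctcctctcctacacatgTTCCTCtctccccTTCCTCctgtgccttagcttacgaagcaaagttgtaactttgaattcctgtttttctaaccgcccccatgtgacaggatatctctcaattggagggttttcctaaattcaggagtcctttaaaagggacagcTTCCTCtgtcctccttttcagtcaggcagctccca
C1qb (chr4:136886201-136886450, minus strand): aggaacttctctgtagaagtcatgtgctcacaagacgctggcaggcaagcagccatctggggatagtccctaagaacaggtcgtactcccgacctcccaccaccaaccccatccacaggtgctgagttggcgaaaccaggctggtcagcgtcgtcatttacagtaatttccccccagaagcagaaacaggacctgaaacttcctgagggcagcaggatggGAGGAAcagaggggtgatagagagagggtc
H2-Aa (chr17:34287824-34288073, minus strand): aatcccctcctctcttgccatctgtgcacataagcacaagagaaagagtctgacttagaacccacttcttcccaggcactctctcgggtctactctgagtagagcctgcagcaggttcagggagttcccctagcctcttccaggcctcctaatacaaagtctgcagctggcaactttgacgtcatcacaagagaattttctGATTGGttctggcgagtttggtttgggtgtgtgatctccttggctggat
H2-Eb1 (chr17:34305617-34305866, plus strand): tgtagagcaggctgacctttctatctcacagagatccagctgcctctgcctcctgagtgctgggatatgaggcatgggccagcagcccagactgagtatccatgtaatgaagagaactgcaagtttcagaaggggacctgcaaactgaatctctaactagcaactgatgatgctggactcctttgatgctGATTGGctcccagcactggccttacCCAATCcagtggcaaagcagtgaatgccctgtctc

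RefSeq promoters were found for 30 of the 40 members. GAGGAA was present on either strand in 14 of these 30, among them Itgam, Mrc1, C1qb, C1qc, Cd68, Ctss, Laptm5, Fcgr1, Fcgr3 and Ptprc, and in 25.85% of the 27025 genes in the table. GATTGG was present in 8 of the 30 and in 16.6% of all genes. The 8 were H2-Aa, H2-Eb1, Acp5, Cd163, Cd53, Cd68, Lyz1 and Trem2. Cd53, Cd68 and Trem2 held both motifs, so the motifs did not divide the members by role group. The E-box CACGTG, a site of MITF and related factors of the osteoclast lineage, was in 0 of the 30 and in 6.86% of all genes. GAGGAA and GATTGG can overlap by no more than single bases. A match describes these letters only, and Lyz2, the most abundant member, held none of the 3 motifs in this window.

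Lyz2, the most abundant member by mean FPKM, separated the genotypes with WT replicate 2 far above the rest. It (mm10 chromosome 10, 117277331 to 117282321, minus strand) is the main lysozyme gene of mouse macrophages and read 127.7, 1433.6 and 103.9 FPKM in WT against 31.0, 15.5 and 11.6 in A2ARKO. All WT libraries were above all A2ARKO libraries, and WT replicate 2 was 11.2 times the next. Its log2 fold change was -3.84 (standard error 1.04, limma adjusted p = 0.091), and -2.63 without WT replicate 2 (standard error 0.415, adjusted p = 0.0517). The neighbouring near-identical copy Lyz1 read 0.32, 1.43 and 0.17 FPKM in WT and at most 0.01 in A2ARKO, and reads may be split between the copies.

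Ctss, the lysosomal protease cathepsin S that processes antigen, read 16.65, 72.5 and 7.64 FPKM in WT against 3.23, 1.14 and 0.77 in A2ARKO. The groups did not overlap, and Ctss had the smallest p of the members (log2 fold change -3.15, standard error 0.799, limma adjusted p = 0.0795). Cd68, a lysosomal membrane protein of macrophages, read 10.4, 70.4 and 4.44 FPKM in WT against 4.83, 3.23 and 3.18 in A2ARKO. Here WT replicate 3 lay below A2ARKO replicate 1, so the groups overlapped, and the adjusted p was 0.278. Mpeg1, encoding the pore-forming perforin-2, read 5.39, 34.7 and 2.45 FPKM in WT against 2.92, 1.31 and 2.95 in A2ARKO, again with overlap.

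The receptor genes that define macrophages had the same separation of the groups as Lyz2. Adgre1, which encodes the F4/80 antigen, read 3.99, 32.2 and 3.46 FPKM in WT against 2.39, 0.86 and 0.66 in A2ARKO. Csf1r read 2.70, 22.1 and 2.0 FPKM in WT against 1.39, 0.64 and 0.50 in A2ARKO. In both genes the groups did not overlap, and the limma adjusted p was 0.187 for Adgre1 and 0.218 for Csf1r. Part of the exons of Csf1r overlap Hmgxb3 on the other strand, and with no strand setting given some of its reads may belong there. Adgre1 overlaps no other annotated gene.

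Mrc1, a mannose receptor of tissue macrophages, read 1.63, 31.75 and 0.95 FPKM in WT against 0.21, 0.19 and 0.15 in A2ARKO, so that WT replicate 2 was 19.5 times the next library. Laptm5, a lysosomal membrane protein of blood cells, read 3.42, 25.9 and 2.37 FPKM in WT against 0.68, 0.26 and 0.23 in A2ARKO. Its log2 fold change was -2.42 (standard error 0.774, limma adjusted p = 0.127). Without WT replicate 2 it was -1.49 (standard error 0.207, adjusted p = 0.0387), and over every setting that fitted Laptm5 the adjusted p lay between 0.0309 and 0.325. Laptm5 passed the main filter through WT alone, and that filter counted WT replicate 2, so this call is no support for a difference. With the filter applied to the other 5 libraries Laptm5 was not among the 12 members fitted. The integrin gene Itgam, the tetraspanin gene Cd53 and the actin regulator gene Coro1a were lower in each A2ARKO library than in any WT library, at 0.08 to 0.66 FPKM against 1.05 to 13.1. These genes also passed the filter through WT alone, so the filter itself fixed that order. Itgam shares most of its exon bases with the annotated gene Gm49368, so its level is uncertain.

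Pan-leukocyte and myeloid regulator genes were low outside WT replicate 2. CD45 (Ptprc) read 0.17, 1.40 and 0.17 FPKM in WT against 0.04, 0.01 and 0.01 in A2ARKO. Spi1, encoding PU.1, read 0.71, 9.09 and 0.54 FPKM in WT against 0.19, 0.10 and 0.04 in A2ARKO. The microglial and macrophage receptor genes Cx3cr1 and Trem2 and the NADPH oxidase subunit gene Ncf1 were likewise higher in each WT library than in any A2ARKO library, with WT replicate 2 at 4.83, 5.57 and 6.43 times the next library. Cd52, a small surface antigen of leukocytes, read 0.71, 11.6 and 1.28 FPKM in WT against 0.21, 0 and 0.03 in A2ARKO, and Aif1, encoding IBA1, reached 2.5 FPKM in WT replicate 2 and at most 0.16 elsewhere. None of these 7 genes was tested, as too few libraries reached 1 FPKM. Cybb, the catalytic oxidase subunit, overlapped between the groups (1.17, 8.65 and 1.86 against 1.95, 0.76 and 0.60 FPKM). Pf4, a chemokine of platelets that macrophages also make, read 2.13, 19.9 and 0.74 FPKM in WT against 0.81, 1.03 and 0.87 in A2ARKO, and its groups overlapped. Of the platelet genes, Gp1bb read 1.04 to 1.76 FPKM, Itga2b 0.68 to 1.08 and Ppbp 0 to 2.18, all with overlapping groups, and Gp9 and Gp1ba at most 0.08. Cd163, the haemoglobin scavenger receptor of some tissue macrophages, was at most 0.04 FPKM, and Itgax, encoding CD11c, was highest in WT replicate 1 at 0.42 FPKM.

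Fc receptors and their signalling adaptors were all at least 4 times higher in WT replicate 2 than in any other library. Fcer1g, the shared Fc receptor gamma chain, read 5.64, 63.6 and 3.85 FPKM in WT against 2.64, 0.65 and 0.69 in A2ARKO. Tyrobp, the adaptor DAP12, read 6.63, 57.8 and 4.90 FPKM in WT against 2.24, 0.88 and 0.20 in A2ARKO. Fcgr3, an activating IgG receptor, read 2.34, 19.5 and 1.20 FPKM in WT against 0.74, 0.28 and 0.34 in A2ARKO. For all 3 genes the groups did not overlap, and the limma adjusted p was 0.185, 0.13 and 0.218. Fcgr3 passed the filter through WT alone, so for that gene the filter itself fixed the order. Fcgr1, the high-affinity IgG receptor, was 28.25 times the next library in WT replicate 2 (6.78 FPKM against 0.24 or less elsewhere). Fcgr2b, the inhibitory receptor, read 2.01 FPKM there and 0.17 or less elsewhere. Fcgr2b and Fcgr3 are close copies in sequence, so reads may be split between them.

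Among the 21 tested members the 3 C1q genes had the highest ratios of the WT mean to the A2ARKO mean. They lie side by side on mm10 chromosome 4 and encode the A, B and C chains of a single protein complex. C1qb read 10.2, 109.7 and 2.99 FPKM in WT against 0.29, 0.11 and 0.03 in A2ARKO, or about 16.3, 7.0 and 1.7 reads in the A2ARKO libraries. C1qa read 6.58, 63.9 and 1.06 FPKM in WT against 0.24, 0.02 and 0 in A2ARKO. C1qc read 4.83, 40.4 and 1.43 FPKM in WT against 0.13, 0.03 and 0.02 in A2ARKO. Groups did not overlap in any of the 3, but all 3 passed the filter through WT alone, so the filter itself fixed that order. The ratio of the WT mean to the A2ARKO mean was 286 for C1qb and 259 for C1qc, and 45.9 and 52.2 without WT replicate 2, on A2ARKO means of only 0.143 and 0.06 FPKM. The limma log2 fold changes of C1qa, C1qb and C1qc were -3.22, -3.90 and -2.98 (adjusted p of 0.165, 0.108 and 0.134), a scale that compresses such low values.

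The C1q genes and some other members were lower in A2ARKO also relative to Adgre1 and Csf1r, while further members overlapped or were higher. Relative to Adgre1, the summed FPKM of the 3 C1q genes was 5.41, 6.64 and 1.58 in WT and 0.276, 0.186 and 0.0758 in A2ARKO. Relative to Csf1r it was 8.0, 9.67 and 2.74 in WT and 0.475, 0.25 and 0.1 in A2ARKO. The 2 groups of ratios did not overlap by either denominator, and this was as true of WT replicates 1 and 3 as of WT replicate 2. Lyz2 relative to Adgre1 was 32.0, 44.5 and 30.0 in WT and 13.0, 18 and 17.6 in A2ARKO, a narrower gap with no overlap. Laptm5 relative to Csf1r was 1.27, 1.17 and 1.19 in WT and 0.489, 0.406 and 0.46 in A2ARKO. Tyrobp relative to Csf1r was 2.46, 2.61 and 2.45 in WT and 1.61, 1.38 and 0.4 in A2ARKO. Mrc1 relative to Csf1r was 0.604, 1.43 and 0.475 in WT and 0.151, 0.297 and 0.3 in A2ARKO. For these 3 genes the ratios did not overlap by either denominator, whereas those of Marco, a scavenger receptor gene outside the members, did. Mpeg1 relative to Adgre1 was 1.35, 1.08 and 0.708 in WT and 1.22, 1.52 and 4.47 in A2ARKO, with overlap. Relative to Csf1r it was 2.0, 1.57 and 1.23 in WT and 2.1, 2.05 and 5.9 in A2ARKO, so that A2ARKO lay just above WT with no overlap. Other members did not go the way of C1q either. The FPKM of Cybb, Gpnmb and Acp5, divided by that of Adgre1 or Csf1r, was higher in every A2ARKO library than in any WT library. For Cd68, Pf4 and Coro1a such ratios overlapped between the groups. All these ratios were chosen after the values were seen, and they are a description with no test.

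**Figure D3:**
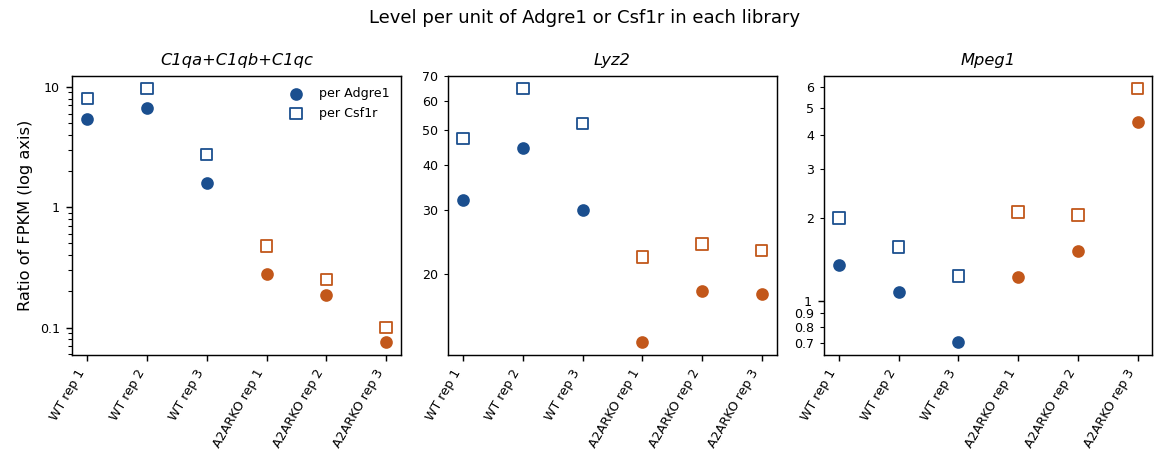
FPKM of the summed C1q genes, Lyz2 and Mpeg1 divided by that of Adgre1 (filled circles) or Csf1r (open squares) in each library, on log axes, with WT in blue and A2ARKO in orange. The C1q ratio is 1.58 or more in every WT library and 0.475 or less in every A2ARKO library, whereas Mpeg1 per Adgre1 overlaps between the groups and Mpeg1 per Csf1r is slightly higher in A2ARKO.

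The 4 MHC class II genes overlapped between the genotypes, and 3 of them were highest in WT replicate 2. Cd74, the invariant chain that escorts class II molecules, read 0.46, 6.73 and 0.77 FPKM in WT against 1.32, 0.92 and 0.99 in A2ARKO, so that WT replicates 1 and 3 were the lowest of all. H2-Aa, the alpha chain of I-A, was detected almost only in WT replicate 2 (1.81 FPKM, and 0 to 0.04 elsewhere). H2-Eb1 read 0.55, 2.37 and 0.58 FPKM in WT against 0.87, 0.70 and 1.17 in A2ARKO. H2-Ab1, the beta chain that pairs with the H2-Aa product, had another order: 8.53, 2.98 and 0.49 FPKM in WT against 2.65, 5.44 and 9.55 in A2ARKO. Its exons overlap no other annotated gene, and its log2 fold change was 0.71 (standard error 0.724, limma adjusted p = 0.597).

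H2-Ab1 is set beside the cartilage collagen gene Col2a1, which read 18662, 808 and 185 FPKM in WT against 1363, 2939 and 3887 in A2ARKO. Both genes were lowest in WT replicate 3, and WT replicate 1 and A2ARKO replicate 3 were the 2 highest libraries for both. The comparison was made after the values were seen. Ciita, the master activator of class II genes, was at most 0.05 FPKM in all libraries. H2-DMa and H2-DMb1, which load class II molecules, ranged from 2.66 to 6.37 FPKM with no member of that list called (limma, 0 of 2 tested of 7 listed).

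**Figure D4:**
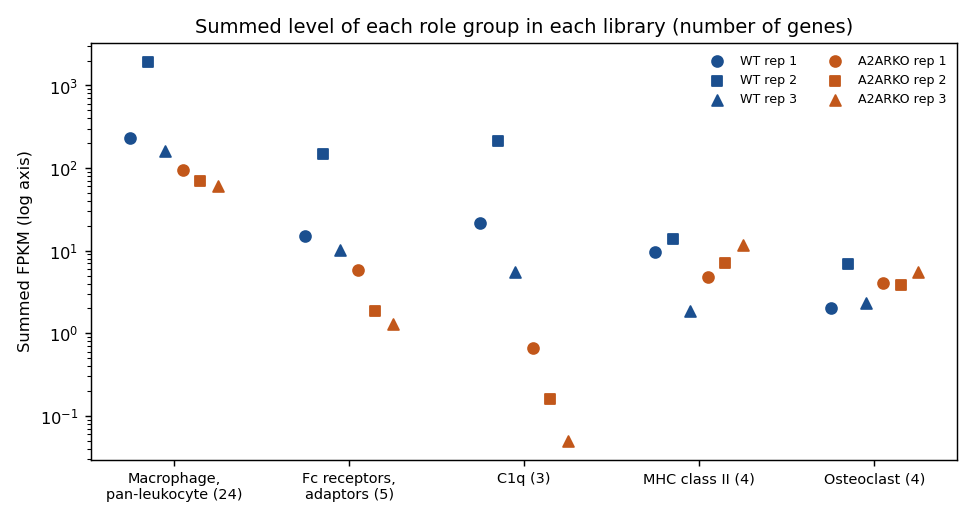
Summed FPKM of the members of each role group in each library on a log axis, WT in blue and A2ARKO in orange, with the number of genes in brackets. The macrophage, Fc receptor and C1q sums are lower in every A2ARKO library than in any WT library, whereas the sums of MHC class II and osteoclast genes overlap between the groups.

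In none of the 4 osteoclast members did every WT library lie above every A2ARKO library, as in most macrophage members, though 3 of the 4 were highest in WT replicate 2. Acp5, the tartrate-resistant acid phosphatase of osteoclasts, read 1.98, 6.42 and 2.32 FPKM in WT against 3.78, 3.71 and 5.35 in A2ARKO. WT replicate 2 was the highest, but WT replicates 1 and 3 were the lowest, and the log2 fold change was 0.32 (standard error 0.362, limma adjusted p = 0.637), or 0.73 without WT replicate 2 (standard error 0.168, adjusted p = 0.0905). The fusion genes Dcstamp and Ocstamp, which mark cells about to become multinucleated, were at most 0.31 and 0.08 FPKM, both in WT replicate 2, and Dcstamp was listed at 0 in all A2ARKO libraries. Calcr, the calcitonin receptor of mature osteoclasts, read 0, 0.03 and 0 FPKM in WT against 0.27, 0.08 and 0.16 in A2ARKO, about 54.4, 18.2 and 33.0 reads, and was too low to be tested. Gpnmb, counted with the macrophage genes, encodes a glycoprotein of macrophages and osteoclasts that other cells also make. It had overlapping groups: 50.4, 76.2 and 23.9 FPKM in WT against 41.9, 43.1 and 38.2 in A2ARKO (log2 fold change -0.14, standard error 0.395, limma adjusted p = 0.864).

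Of 18 further osteoclast genes, 11 were tested. Where 3.31% of all tested genes were called higher and 1.77% lower, 1 of these 11 was called higher and 10 were not called. The gene called was Fosl1, an AP-1 transcription factor that is not restricted to osteoclasts (log2 fold change 2.82, limma adjusted p = 0.00318), called whichever library was left out. Ctsk, the collagen-degrading protease of osteoclasts and also of fibroblasts, read 117, 149.9 and 93.1 FPKM in WT against 69.35, 71.7 and 60.9 in A2ARKO (limma adjusted p = 0.0677). In this gene every WT library lay above every A2ARKO library and WT replicate 2 was the highest, the order of most macrophage members. The osteoclast proton pump subunit gene Atp6v0d2 and the RANK gene Tnfrsf11a were highest in WT replicate 2, at 1.45 and 1.29 FPKM, and at or below 0.72 elsewhere.

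Many other myeloid genes had the same separation as the members. Of 57 such genes, 28 lay wholly above A2ARKO in WT and 0 wholly below (10.2% and 10.9% of the genes above 0 in some library). Lilrb4a, an inhibitory receptor of myeloid cells, read 2.38, 39.8 and 3.28 FPKM in WT against 1.77, 0.72 and 0.51 in A2ARKO, and Lcp1, an actin bundler of leukocytes, 1.63, 16.6 and 1.23 against 0.56, 0.20 and 0.19. Of the 57, 16 were tested and 0 called by limma, 2 had an unadjusted p below 0.05, and the median log2 fold change was -1.03. Their summed FPKM overlapped between the groups, at 172, 664 and 151 in WT against 223, 131 and 157 in A2ARKO, and held Cyba, Apoe and Sirpa, which were at 20 FPKM or more in all libraries and are not restricted to myeloid cells. In the 57, WT replicate 2 was the highest library for 52 and at least 4 times the next for 41. Marco read 0.24, 48.9 and 1.72 FPKM in WT against 5.97, 1.22 and 0.24 in A2ARKO, so here A2ARKO replicate 1 was second. Over all 11595 tested genes, 70 were highest in WT replicate 2 at 4 times the next library or more, 0.604%. Of these 70, 18 were members and 8 belonged to the list of other myeloid genes. The other 44 were in no list and were headed by muscle genes, with Actc1, Myh3 and Tnni1 at 135, 85.2 and 67.9 times the next library.

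Markers of lymphoid, mast and erythroid cells were near 0, whereas those of neutrophils were not in every library. Summed over 12 genes of T and NK cells the level was 0.33 to 1.14 FPKM, over 9 B cell genes 0.17 to 1.63, over 7 mast cell genes 0.11 to 0.20 and over 8 erythroid genes 0 to 0.14. Cd3e, Cd8a and Ms4a1 were listed at 0 in all 6 libraries. Endothelial genes summed to 1.40 to 4.42 FPKM. The neutrophil genes summed to 0.44, 17.1 and 1.29 FPKM in WT against 10.6, 10.4 and 13.5 in A2ARKO. Among them S100a9 read 7.99 FPKM in WT replicate 2 and at most 0.04 elsewhere, and Ngp 1.71 there and at most 0.02 elsewhere, while Camp, an antimicrobial peptide gene, read 0.16, 1.11 and 0.95 FPKM in WT against 8.70, 8.22 and 11.2 in A2ARKO. Camp was called higher in A2ARKO (log2 fold change 2.61, limma adjusted p = 0.0085, and 0.0511 without A2ARKO replicate 2). S100a8, the other of the 2 tested neutrophil genes, was not called (log2 fold change 0.47, limma adjusted p = 0.687). Without WT replicate 2, S100a8 was called higher in A2ARKO (log2 fold change 1.20, limma adjusted p = 0.0387). The neutrophil genes Mpo, Ly6g and Cxcr2 were at most 0.02 FPKM.

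Of the factors that act on myeloid cells, Csf1, Csf3 and Cx3cl1 were called higher in A2ARKO. Csf1, the ligand of the Csf1r product, read 159, 104 and 149 FPKM in WT against 389, 291 and 270 in A2ARKO and was called higher (log2 fold change 1.21, standard error 0.229, limma adjusted p = 0.0441). That call held without WT replicate 1 (0.0397) and was lost with any other library left out, at an adjusted p of 0.0589 to 0.161. It was also lost after rescaling to the same sum (0.0746), after quantile normalization (0.0768) and with no filter (0.103). The monocyte chemokine gene Ccl2 read 3.19, 150 and 31.9 FPKM in WT against 759, 683 and 722 in A2ARKO, with no overlap and a limma adjusted p of 0.0825, which was 0.0424 and 0.0423 without WT replicate 1 or 2 and 0.127 to 0.235 without any other library. Cx3cl1, the ligand of the Cx3cr1 product, was called higher (12.2 ± 3.58 to 39.4 ± 12.5 FPKM, SD, n = 3, limma adjusted p = 0.0381), and the call was lost with any library other than WT replicate 1 left out (adjusted p of 0.0604 to 0.152) and with no filter (0.0848). Csf3, the granulocyte factor, was called whichever library was left out, at 3.33 ± 0.727 FPKM in A2ARKO (SD, n = 3, limma adjusted p = 0.00817) and at most 0.38 in WT. Of 11 such factors 10 were tested, 3 were called higher and 0 lower, where 3.31% of all tested genes were called higher and 1.77% lower. The osteoclast factor gene Tnfsf11, encoding RANK ligand, read 0.72, 6.58 and 2.12 FPKM in WT against 15.6, 7.88 and 9.62 in A2ARKO (adjusted p = 0.123).

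**Figure D5:**
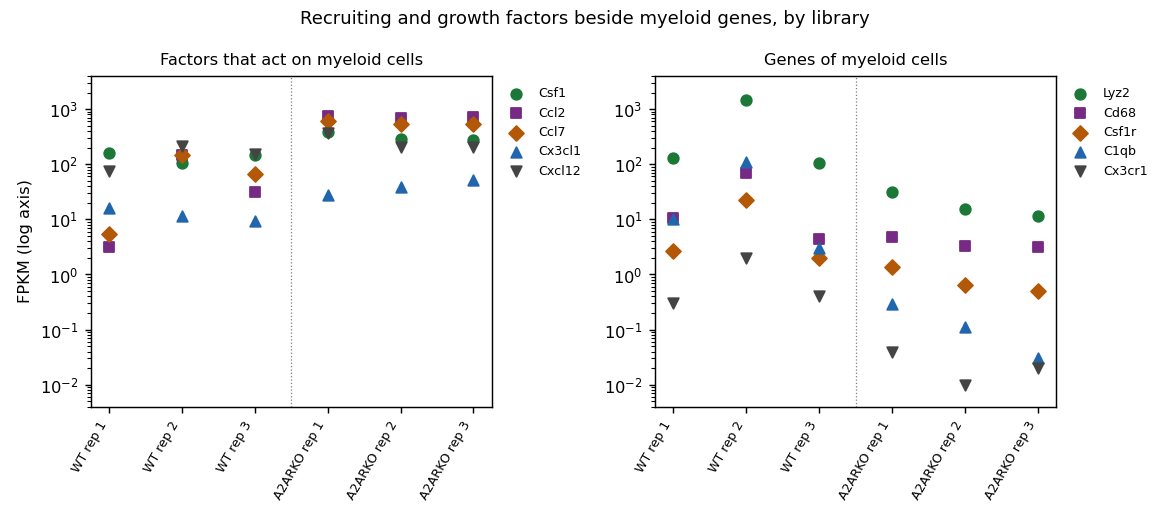
FPKM in each library on a log axis of 5 factors that act on myeloid cells (left) and of 5 genes of myeloid cells (right), with WT to the left of the dotted line and A2ARKO to the right. Csf1, Ccl2, Ccl7 and Cx3cl1 are higher in every A2ARKO library than in any WT library, and Lyz2, Csf1r, C1qb and Cx3cr1 are lower in every A2ARKO library.

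Within each genotype most members were highest in the same library. WT replicate 2 was the highest WT library for 37 of 40 members and for 20 of the 21 tested, against 30.8% of all tested genes. Over the 21 tested members it was 8.33 times WT replicate 1 (median, range 0.349 to 12.5) and 11.8 times WT replicate 3 (median, range 2.77 to 60.2). In A2ARKO, replicate 1 was the highest for 29 of 40 members (40.2% of all genes above 0 in an A2ARKO library) and for 16 of the 21 tested (42.1% of all tested genes). Its median ratio to A2ARKO replicate 2 over the tested members was 2.55 (range 0.487 to 12). In each genotype the muscle genes Acta1 and Tnnc2 were highest in the same library as most members. Acta1, the actin of skeletal muscle, read 3.91, 444.4 and 9.11 FPKM in WT and 16.2, 5.69 and 7.25 in A2ARKO. Tnnc2, a troponin, read 0.96, 161 and 2.19 FPKM in WT and 4.49, 0.71 and 1.80 in A2ARKO. Unlike the summed members, both genes were higher in WT replicate 3 than 1 and in A2ARKO replicate 3 than 2. Murc, another muscle gene, read 2.58, 2.87 and 3.23 FPKM in A2ARKO, highest in replicate 3. The summed chondrocyte level was highest in WT replicate 1, which was not the lowest library for the members. The part of these differences in cell make-up in the result was not tested.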

How the data were processed

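The authors deposited 1 table of FPKM, rounded to 2 decimals, with 47480 genes and 6 libraries, and all 6 columns were used, assigned by sample title. HTSeq and mm10 are named in the submitters' processing notes. No source used here gives the aligner, annotation, gene lengths or strand setting. Depth was estimated from FPKM steps of genes of at most 150 nt, where at least 99.6% of low values (10 reads or fewer) fell within 0.1 of a whole read. Approximate reads used exon lengths of GENCODE M21 (GRCm38). With these lengths the reads summed over genes came to 51.56 to 64.92 M, above the estimated depth in every library. The approximate reads given for C1qb and Calcr are therefore rough. No 2 libraries of a genotype agreed within sampling noise (median chi-square 5.2 times noise or more). Differences were fitted with limma 3.58.1 (eBayes with trend, R 4.3.3) on log2(FPKM + 1), two-sided, without a block, over genes of 1 FPKM or more in 3 libraries, with Benjamini-Hochberg adjustment over all 11595. Fold changes on this scale understate those of low genes. In simulated data of 11595 genes, changes of 0.5, 1, 2 and 4 log2 units were recovered in 14%, 84%, 92% and 96%, with 10 false calls among 11395. The changed genes were drawn at random from those with a mean log2(FPKM + 1) above log2 of 6. These rates therefore do not hold for members below that level or with a large spread between libraries. The members and lists were chosen with earlier results of these data known. By rule, values in every library are given for up to 6 of the most abundant members of each role group, of other lists up to 4 of the most abundant and any called could be named, and genes outside the rule were chosen after their values were seen. Alternatives covered the pseudocount, filters, rescaling, quantile normalization, library weights, a replicate block and each library left out. A p-value here measures the spread between litters. With 3 against 3 libraries an exact permutation test cannot go below 0.1 and was not used.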

Additional observations from a re-analysis of the deposited data

How the results depend on the processing

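Under at least 1 alternative 12 of the 21 tested members changed their call or sign: 11 were called with library weights, Laptm5 and Ctss among them also with 1 library left out, and Gpnmb changed sign. Of 306 refits of single members 289 gave the same verdict, 14 were called where the full fit was not, and 3 reversed, all of Gpnmb without WT replicate 2 (log2 fold change 0.23, range -0.58 to 0.23 with a library left out). The median over the tested members moved from -1.82 to between -2.52 and -0.91 with a library left out. The count of called members was 0 with a pseudocount of 0.1, with no filter, with 1 FPKM in 1 library, after rescaling, after quantile normalization and with the replicate block, with 13, 9, 11, 13, 13 and 8 members lower at an unadjusted limma p below 0.05. The share of all genes lower at that level was 6.54% with no filter and 9.99% with 1 FPKM in 1 library. It was not computed for the other settings of this list. Members that passed the main filter through WT alone are included, so these counts are no support for a difference. The count of called members was 11 with library weights and lay between 0 and 1 with a library left out. Without WT replicate 2, it was 0 with the filter applied to the other 5 libraries (12 members). It was 1 with that filter relaxed to 1 library (27 members), and both fits were added after seeing the data. The count over all genes was 589, and 213 with no filter, 348 after rescaling, 1363 with library weights, 2 with the replicate block, 282 and 285 in those added fits, and 50 to 900 with a library left out. The labels give same-numbered libraries no more than a shared number. Their deviations from the group mean correlated at -0.52, -0.33 and -0.39. Such values cannot show whether these libraries shared a batch, and the block is not read as a pairing. The causes were not tested. FPKM in steps of 0.01 limit the C1q values in A2ARKO.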
